A study of Homo sapiens with 19 samples.

Results

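ERRα (gene ESRRA) is an orphan nuclear receptor that binds DNA and drives genes of mitochondrial energy metabolism. The genes described here are those of the receptor itself, of its close relatives and of the proteins that switch it on or off: ESRRA, ESRRB and ESRRG, which encode the receptors ERRα, ERRβ and ERRγ, PPARGC1A, PPARGC1B and PPRC1, which encode the coactivators PGC-1α, PGC-1β and PRC, and NRIP1, which encodes the corepressor RIP140. These 7 genes were chosen by symbol among 20136 protein-coding genes of the GENCODE annotation on GRCh37 (hg19). At each of them, every ERRα peak whose centre lay within 20 kb of an annotated transcription start, or inside the gene body, was listed. The question was whether, and under which condition, ERRα was found on the genes of its own regulatory circuit. In all, 228 of 264623 peaks met the rule, and joining peaks that shared 1 bp or more, in chains across the lists, gave 77 of 90452 sites.

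SKBr3 and BT-474 are ERBB2-positive human breast cancer cell lines. After 24 h of serum depletion both received 100 µM epidermal growth factor (EGF), 100 µM heregulin (HRG) or vehicle for 90 min before chromatin was taken, with doses as the labels state them. pSKBr3 is the untreated parental SKBr3 line, and LRSKBr3 is its derivative with acquired lapatinib resistance, kept in 2 µM of this EGFR and HER2 kinase inhibitor, so the line and the drug cannot be told apart. ERRα chromatin immunoprecipitation sequencing (ChIP-seq) gave 19 libraries, 13 of ERRα ChIP and 6 of input, from which the authors made 8 peak lists. The SKBr3, pSKBr3 and LRSKBr3 lists each pool 2 ChIP libraries, and each BT-474 list rests on 1 ChIP library. The BT-474 lists share the input of vehicle-treated cells. The SKBr3 vehicle, EGF and HRG lists are also called the SKBr3 lists, and these together with pSKBr3 and LRSKBr3 the 5 SKBr3-derived lists.

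The lists held 22539 (pSKBr3) to 41271 (BT-474 HRG) peaks, and the depth of the libraries behind them is unknown. Each condition has 1 list, so no difference between conditions can be set against the spread between replicates, and no P value is given. The score of a peak, which rises as its P value in the authors' peak calling falls, depends on depth. It was therefore turned into a score percentile, the share of peaks in the same list with a lower score, with ties counted in equal parts as lower and higher. The lists give no expression values, so the identity of the cell lines could not be checked against marker genes.

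ERR proteins bind the extended word TCAAGGTCA, the ERR response element (ERRE), and its core AAGGTCA. PGC-1α and PGC-1β bind to ERRα and raise its activity, and RIP140 counters it. ERRα is also known to act on its own promoter. AP-1, a factor of FOS and JUN proteins that responds to growth factors, binds TGACTCA or its reverse complement TGAGTCA. These words were sought on both strands within 100 bp of each peak centre. Every ERRE holds an AAGGTCA word, so the 2 counts overlap.

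The stretches that carry the main sites are printed below from the plus strand of GRCh37, 5′ to 3′, with ERRE, AAGGTCA and AP-1 words in capitals. A word that lies on the minus strand reads TGACCTT or, in full, TGACCTTGA. The ESRRA promoter is shown for its 3 repeated words, the ESRRA intron and the ESRRA far 3′ side for sites in 8 and in 7 lists, and NRIP1 for its site in 8 lists. The stretches named tandem show AAGGTCA words that overlap by 1 base. The PPARGC1B growth factor site is shown for its AP-1 words, the PPARGC1B broad site for 3 AAGGTCA words, and the PPARGC1B ERRE site for the only ERRE found at that gene within these windows.
ESRRA promoter, chr11:64072243-64072370: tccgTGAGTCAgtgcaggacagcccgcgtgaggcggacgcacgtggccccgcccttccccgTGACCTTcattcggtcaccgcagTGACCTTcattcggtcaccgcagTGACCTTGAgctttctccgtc
ESRRA intron, chr11:64078629-64078659: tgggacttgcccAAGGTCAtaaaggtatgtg
ESRRA far 3′ side, chr11:64099206-64099404: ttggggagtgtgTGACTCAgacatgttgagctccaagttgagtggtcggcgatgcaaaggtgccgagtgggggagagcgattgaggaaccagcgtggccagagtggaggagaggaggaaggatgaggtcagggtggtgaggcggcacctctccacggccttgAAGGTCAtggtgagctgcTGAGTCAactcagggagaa
NRIP1 intron, chr21:16377812-16377844: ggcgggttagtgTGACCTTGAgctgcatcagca
NRIP1 tandem, chr21:16351749-16351785: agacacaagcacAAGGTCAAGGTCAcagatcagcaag
ESRRG tandem, chr1:217230693-217230731: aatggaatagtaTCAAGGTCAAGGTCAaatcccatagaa
PPARGC1B growth factor site, chr5:149218841-149218967: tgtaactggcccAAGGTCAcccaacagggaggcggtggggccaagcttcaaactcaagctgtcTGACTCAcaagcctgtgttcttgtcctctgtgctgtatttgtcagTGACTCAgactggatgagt
PPARGC1B broad site, chr5:149162879-149162982: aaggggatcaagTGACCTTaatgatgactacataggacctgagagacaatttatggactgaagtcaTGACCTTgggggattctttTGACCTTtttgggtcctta
PPARGC1B ERRE site, chr5:149131431-149131463: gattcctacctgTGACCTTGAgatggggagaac

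ERRα peaks were found at all 7 genes, but only 5 of them, ESRRA, ESRRB, ESRRG, PPARGC1B and NRIP1, had a peak in all 8 lists. Of all protein-coding genes, 30.3% had one. With lists of equal size 4 genes were left (without ESRRG), and with peaks of P at most 1e-10 3 were left (without ESRRB and ESRRG). PPARGC1A had peaks in the BT-474 lists alone and PPRC1 in the SKBr3-derived lists alone. In the SKBr3 vehicle, EGF and HRG lists, 6, 5 and 6 of the 7 genes had a peak, against 57.2%, 59.6% and 69.4% of all protein-coding genes. In each of the 3 BT-474 lists 6 of 7 had one, against 56.6% on vehicle, 46.3% on EGF and 58.7% on HRG. In the pSKBr3 and LRSKBr3 lists 6 of 7 had one, against 60.0% and 72.4%. Gene length bears on these counts, since a longer gene offers a wider window. Among genes with a window at least as long, a peak in all 8 lists was found for 37.8% of 12041 genes for ESRRA, 51.9% of 3693 for NRIP1, 55.8% of 2675 for PPARGC1B, 60.9% of 1444 for ESRRB and 72.6% of 208 for ESRRG.

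**Figure D1:**
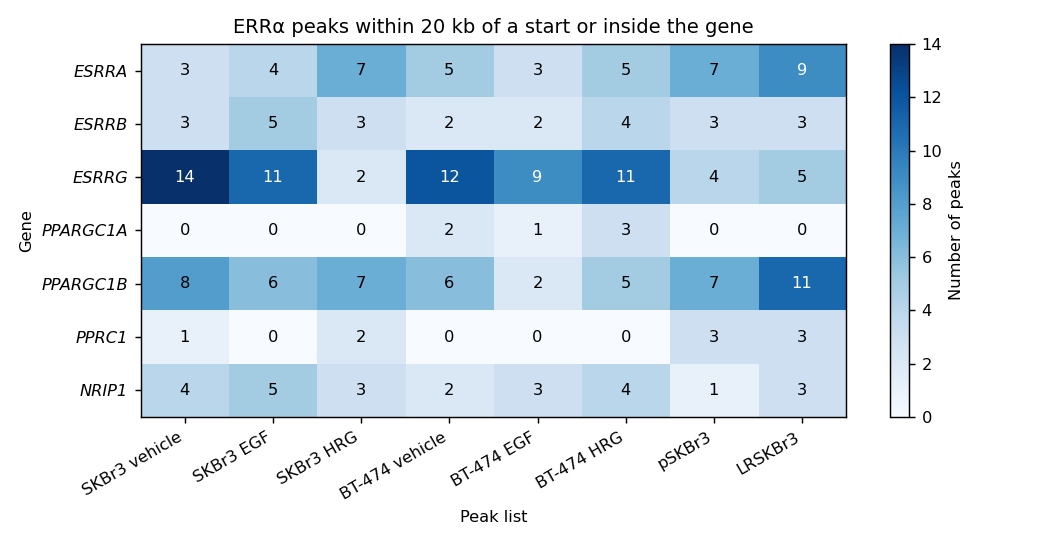
Number of ERRα peaks at each of the 7 genes (rows) in each of the 8 peak lists (columns), counted within 20 kb of a start or inside the gene. ESRRG ranges from 2 peaks on HRG to 14 on vehicle in SKBr3 cells, and PPARGC1A is at 0 in all 5 SKBr3-derived lists.

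ERRα occupied the ESRRA promoter in all 8 lists, at the score of 3100 that many of the strongest peaks share. Of the 7 genes ESRRA alone had a peak centre within 1 kb of a start in every list, which 6.56% of protein-coding genes had. In at least 1 list, 3 of the 7 genes (ESRRA, ESRRG and PPRC1) had such a peak, against 51.9% of protein-coding genes. The promoter peak stood at the 98.6th percentile in the SKBr3 vehicle, EGF and HRG lists, at 98.3, 98.9 and 98.4 in the BT-474 vehicle, EGF and HRG lists, at 98.8 in pSKBr3 and at 98.7 in LRSKBr3. Because 2.11% to 3.22% of the peaks of a list reached this score, the percentiles give no order between the conditions at this site. ESRRA shared it with 134 other genes, whose strongest peaks tied with those of ESRRA in all 8 lists. In 7 of the lists the peak at this score had its centre within 1 kb of a start, and in LRSKBr3 it lay farther out. ESRRA was therefore not among the 30 genes with a peak of this score or more within 1 kb of a start in all 8 lists.

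The promoter site, chr11:64070021-64074779, reached from the 3′ part of CATSPERZ into the 5′ part of ESRRA, and the centre of its strongest peak lay between both genes. ESRRA is a gene of 11.2 kb on the plus strand of chromosome 11 with 7 distinct annotated starts. Within 100 bp of a peak centre the site held 1 AP-1 word, in the pSKBr3 window alone and 14 bp from its centre. Over the whole peaks it held 2. The windows also held 3 AAGGTCA words on the same strand, 23 bp apart, the last of which is part of an ERRE. Of 90452 sites in the series, no other had 3 AAGGTCA words on a strand at this spacing, in a count made after the sequence had been read. At least 3 AAGGTCA words at any spacing occurred in 469 sites (0.519%). The middle of the ERRE lay 2 bp from the peak centre on EGF in SKBr3 cells and 12 bp from that on vehicle in BT-474 cells. It lay 90 bp from the nearest centre in pSKBr3, 105 bp in SKBr3 HRG, 332 bp in BT-474 HRG, 386 bp in BT-474 EGF, 436 bp in SKBr3 vehicle and 557 bp in LRSKBr3. In pSKBr3 and LRSKBr3 the site was split into 2 peaks, so that the peak at 3100 in LRSKBr3 had its centre 1172 bp before the start, and a peak at a score of 367.38 had its centre 56 bp before it.

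The other ESRRA site of all 8 lists, chr11:64077520-64079632, lay in an intron 5.63 kb past the 5′ end, with 1 AAGGTCA word. Its percentile was 84.7, 56.3 and 79.4 in the SKBr3 vehicle, EGF and HRG lists. It was 83.6, 48.8 and 59.5 in those of BT-474, 93.0 in pSKBr3 and 91.0 in LRSKBr3. In both cell lines the EGF list thus held its lowest percentile. In the series as a whole 7.10% of sites were called in all 8 lists, against 3 of 77 at the 7 genes (3.90%, 95% Wilson interval 1.33 to 10.8). By gene, 2 of 7 (ESRRA and NRIP1) had such a site, against 24.4% of protein-coding genes.

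With the promoter peak included, ESRRA had 3 peaks on vehicle, 4 on EGF and 7 on HRG in SKBr3 cells. In BT-474 cells it had 5 peaks on vehicle, 3 on EGF and 5 on HRG. pSKBr3 had 7 and LRSKBr3 9, each with 2 peaks at the split promoter site. Of its 8 sites, 4 were growth factor-induced in SKBr3 cells, meaning called on EGF or HRG but not on vehicle, and none was in BT-474 cells. The highest-ranking of these, the far 3′ side site chr11:64098291-64100430, lay 26.4 kb past the 5′ end and 8327 bp before the nearest protein-coding start, that of CCDC88B. It was absent from the SKBr3 vehicle list, stood at the 91.0 percentile on EGF and at 97.0 on HRG, and was called in the other 5 lists at percentiles of 38.2 (BT-474 EGF) to 85.7 (LRSKBr3). Its AAGGTCA word lay 28 bp from the peak centre on EGF and 22 bp from that on HRG in SKBr3 cells, and 2 bp away on BT-474 vehicle. Of its 2 AP-1 words, 1 lay 46 and 40 bp from the SKBr3 EGF and HRG centres. The other lay 122 and 128 bp from them, outside their windows.

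A further induced site, chr11:64083399-64087842, named after its values were seen, covered the starts of TRMT112 and PRDX5, the latter a peroxiredoxin that breaks down peroxides. It had no SKBr3 vehicle peak, and stood at 48.4 on EGF, 90.5 on HRG, 87.2 in pSKBr3 and 94.6 in LRSKBr3. In BT-474 cells it stood at 75.2 on vehicle and 17.4 on HRG and was not called on EGF. The peak that LRSKBr3 alone held at ESRRA, chr11:64081586-64083315, lay 694 bp past an internal start of the gene at the 69.6 percentile. Over all 7 genes, 13 sites had their strongest peak nearer to the start of another gene than to that of the member, so a site listed under ESRRA need not belong to it.

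**Figure D2:**
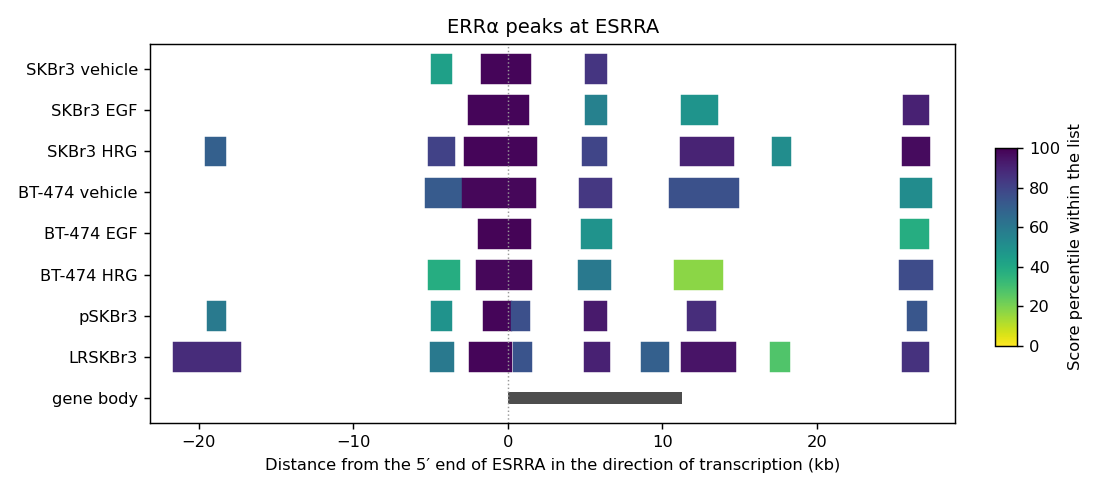
ERRα peaks at ESRRA in each list, as bars from the start to the end of the peak against distance from the 5′ end (kb), coloured by score percentile within the list. The promoter peak at 0 kb is present in all 8 lists, and the site near 26 kb is absent only from the SKBr3 vehicle list.

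At the distance limit, ESRRA peaks just inside lay 19521 bp (LRSKBr3, percentile 87.7) and 18980 bp (SKBr3 HRG, 69.7) from the nearest start. Just outside, 2 SKBr3 HRG peaks lay at 20856 bp (80.9) and 20883 bp (30.5). The latter overlapped a listed peak of LRSKBr3 and joined its site.

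ESRRB, which encodes ERRβ, a receptor of the pluripotent cell, had weaker and less shared peaks than ESRRA. It is a gene of 191 kb on the plus strand of chromosome 14. Its count was 3, 5 and 3 in the SKBr3 vehicle, EGF and HRG lists, 2, 2 and 4 in those of BT-474 and 3 each in pSKBr3 and LRSKBr3. None of its 12 sites was called in more than 5 lists, and none lay within 1 kb of a start. Its highest-ranking site, chr14:76912063-76914193, lay in an intron and was called in the BT-474 lists alone. It stood at 88.2 on vehicle, 85.6 on EGF and 83.6 on HRG. No searched word lay in its window. The strongest ESRRB site that LRSKBr3 held and pSKBr3 did not, chr14:76896683-76897565, stood at 29.8 and was called in LRSKBr3 alone. In the SKBr3-derived lists the strongest ESRRB peak ranged from the 24.1 percentile in pSKBr3 to 70.9 in SKBr3 vehicle.

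ESRRG, which encodes ERRγ, the relative of ERRα found in oxidative tissues such as heart and muscle, had the most peaks of the 7 genes on vehicle and EGF in SKBr3 cells and in the 3 BT-474 lists, and few on HRG in SKBr3 cells. It is also the longest, with 635 kb on the minus strand of chromosome 1. The SKBr3 lists held 14 peaks on vehicle, 11 on EGF and 2 on HRG. Among the 207 other genes with a window at least as long, the median was 5 peaks on vehicle and 4 on HRG, 105 had fewer on HRG, and 18 had at least 12 fewer, as ESRRG did. The BT-474 lists held 12, 9 and 11, pSKBr3 4 and LRSKBr3 5. With lists cut to equal size the ESRRG counts were 7 on vehicle and 0 on HRG, and with peaks of P at most 1e-10 they were 6 and 0. In the SKBr3 lists base composition moved along with this count. The median GC content within 100 bp of peak centres was 44.8% for all SKBr3 vehicle peaks and 50.2% for all SKBr3 HRG peaks. For the ESRRG peaks of these lists it was 40.0% and 58.0%. In the BT-474 vehicle, EGF and HRG lists it was 41.8%, 39.3% and 39.3% for all peaks, with 12, 9 and 11 peaks at ESRRG. The part of base composition in the result was not tested.

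Of the 31 ESRRG sites, 18 were called in 1 list and none in all 8. Over all 7 genes 33 of 77 sites (42.9%) were called in 1 list, against 41.6% of all sites. In the SKBr3 vehicle list the median ESRRG peak stood at the 28.5 percentile. The highest-ranking site, chr1:216937918-216943935, lay in an intron, at 91.0, 87.0 and 94.6 in the BT-474 vehicle, EGF and HRG lists. In the SKBr3 lists it was present on vehicle alone, at 48.9, and it was absent from pSKBr3 and LRSKBr3. Of the sites at starts, chr1:217250159-217253224 was confined to the BT-474 lists, at 80.6, 78.9 and 73.7. The other, chr1:217261780-217264586, was called in all SKBr3 and BT-474 lists, between 13.7 on EGF in SKBr3 cells and 58.9 on HRG in BT-474 cells, and in neither pSKBr3 nor LRSKBr3. No searched word lay in these 3 windows. Of the 2 ESRRG sites called in LRSKBr3 and not in pSKBr3, chr1:217008310-217009294 stood at 20.8 in LRSKBr3 and was called in no other list. The other, chr1:217201582-217205003, stood at 9.20 in LRSKBr3 and at 75.5 in BT-474 HRG.

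**Figure D3:**
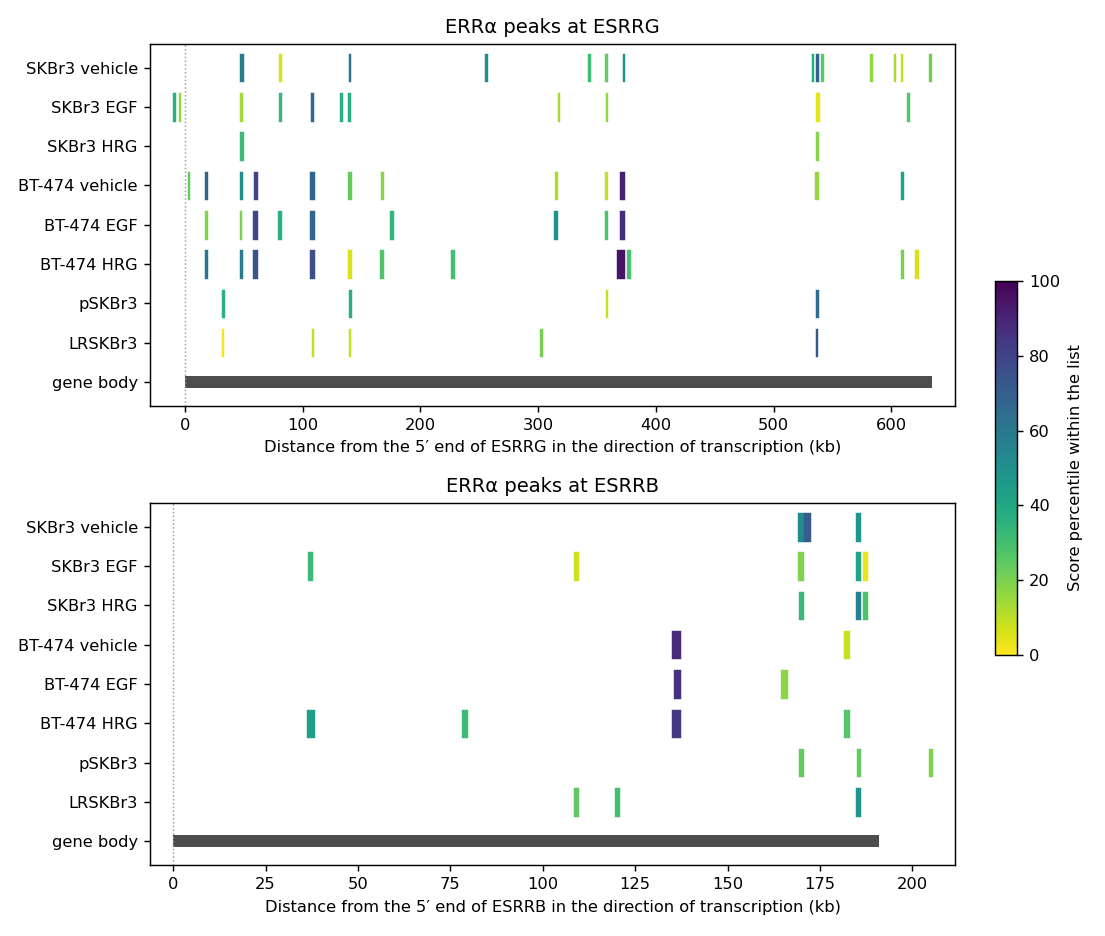
ERRα peaks at ESRRG and ESRRB in each list, as bars against distance from the 5′ end of the gene (kb), coloured by score percentile within the list. The SKBr3 HRG list holds 2 ESRRG peaks where the vehicle list holds 14, and the darkest bars of both genes are in the BT-474 lists.

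The ESRRG tandem site, chr1:217229881-217231752, held 2 ERREs at a spacing of 6 bp. It was the highest-ranking of the 5 ESRRG sites induced by growth factor in BT-474 cells, at 36.3 on EGF. In SKBr3 cells it stood at 5.54 on vehicle and 33.2 on EGF. The 2 ERREs lay 55 and 61 bp from the SKBr3 vehicle centre. They lay 152 and 158 bp from the SKBr3 EGF centre and 154 and 148 bp from the BT-474 EGF centre, outside the windows of both EGF peaks. AAGGTCA words that overlap in this way occurred in 184 of all sites (0.203%) and in 2 of the 77 sites described here, a search made after the sequences had been read.

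Among the PGC-1 genes, PPARGC1B had peaks in all lists, PPARGC1A in the BT-474 lists alone and PPRC1 in the SKBr3-derived lists alone. PPARGC1A, whose product PGC-1α is induced by fasting, cold and exercise, had 2, 1 and 3 peaks in the BT-474 vehicle, EGF and HRG lists and 0 in the 5 SKBr3-derived lists. A BT-474 peak with no SKBr3-derived peak was found for 5.95% of protein-coding genes. Of 2354 genes with a window at least as long as that of PPARGC1A, 233 (9.90%) had no peak in the SKBr3-derived lists. Its site in all 3 BT-474 lists, chr4:23857605-23859482, lay in an intron and had modest ranks of 47.7, 47.8 and 28.3. The highest rank was that of chr4:23878689-23880392, at 54.4, called on HRG alone, with 1 AP-1 word. None of its 4 sites held an AAGGTCA word.

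PPRC1, whose product PRC is a serum-inducible member of the PGC-1 family, was the reverse case. It had 1, 0 and 2 peaks in the SKBr3 vehicle, EGF and HRG lists, 3 each in pSKBr3 and LRSKBr3 and none in the BT-474 lists. Of protein-coding genes, 20.6% had SKBr3-derived peaks and no BT-474 peak. No BT-474 peak was found for 2189 (21.4%) of the 10225 genes with a window at least as long. The promoter site, chr10:103891995-103893293, was called in pSKBr3 at 26.2 and in LRSKBr3 at 46.7 and in no other list. Its strongest peak had its centre 118 bp before a start. The site of highest rank, chr10:103880202-103882868, lay upstream, 1546 bp before the start of LDB1, at 70.9 in SKBr3 vehicle, 79.9 in SKBr3 HRG, 27.6 in pSKBr3 and 86.4 in LRSKBr3. A last site, chr10:103911236-103912856, lay at the start of NOLC1, at 33.1 in SKBr3 HRG, 43.3 in pSKBr3 and 69.1 in LRSKBr3. None of the 3 sites held a searched word.

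PPARGC1B, whose product PGC-1β is a partner of ERRα in breast cancer cells, had most of its peaks in introns of its 5′ part, as the plot of its peaks shows. It spans 125 kb on the plus strand of chromosome 5. It had 8, 6 and 7 peaks in the SKBr3 vehicle, EGF and HRG lists, 6, 2 and 5 in those of BT-474, 7 in pSKBr3 and 11 in LRSKBr3. With lists of equal size pSKBr3 had 7 and LRSKBr3 6, and with peaks of P at most 1e-10 they had 5 and 8. No peak centre lay within 1 kb of a PPARGC1B start in any list.

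A pair of broad intronic sites, named after their values were seen, stood out by their width. The nearer to the 5′ end, chr5:149138435-149145213, was missing from the BT-474 EGF list alone. Its peak was 5715 bp wide in SKBr3 vehicle and 5402 bp in pSKBr3, wider than 98.2% and 99.2% of the peaks of those lists, against 2946 bp and 2890 bp on BT-474 vehicle and HRG. It stood at 79.9, 80.3 and 81.5 in the SKBr3 vehicle, EGF and HRG lists, 60.8 in pSKBr3 and 92.0 in LRSKBr3. The other, chr5:149158549-149165830, was missing from the SKBr3 HRG list alone. It stood at 86.9 on vehicle and 90.1 on EGF in SKBr3 cells, at 78.3, 69.1 and 89.4 on vehicle, EGF and HRG in BT-474 cells, at 73.6 in pSKBr3 and at 91.8 in LRSKBr3. Its windows held 3 AAGGTCA words and 1 AP-1 word.

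The PPARGC1B growth factor site, chr5:149217925-149220074, lay 109 kb past the 5′ end. It was absent on vehicle and stood at the 94.2 percentile on EGF and 87.8 on HRG in SKBr3 cells, the highest rank of any PPARGC1B peak. It was also called on BT-474 vehicle, at 21.3, and in none of the other BT-474 lists, pSKBr3 or LRSKBr3. Its 2 AP-1 words lay 92 and 47 bp from the peak centre on EGF, but 120 and 165 bp from that on HRG. Its AAGGTCA word lay 143 bp from the centre on EGF and 69 bp from that on HRG. No single window of 100 bp to each side thus held both kinds of word. The ERRE site, chr5:149130546-149132382, named for its sequence after its values were seen, was 1 of 2 PPARGC1B sites induced in BT-474 cells, at 22.2 on HRG, where the other, chr5:149124375-149130054, stood at 26.5. The ERRE site was also called in pSKBr3, and stood at 20.6 on vehicle in SKBr3 cells and at 57.6 in LRSKBr3. Of the sites that LRSKBr3 held and pSKBr3 did not, chr5:149132980-149138422 ranked highest, at 62.8 in LRSKBr3, and it was also called in all SKBr3 lists and on BT-474 vehicle and HRG, between 19.7 and 43.9.

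NRIP1, on the minus strand of chromosome 21 with a length of 105 kb, had 1 site in all 8 lists and few others. It had 4, 5 and 3 peaks in the SKBr3 vehicle, EGF and HRG lists, 2, 3 and 4 in those of BT-474, 1 in pSKBr3 and 3 in LRSKBr3. The shared site, chr21:16374852-16379039, lay in an intron 61.3 kb past the 5′ end, 2256 bp before an internal start. The BT-474 lists gave it 1 wide peak each, at 93.9, 92.0 and 94.1. The SKBr3 and LRSKBr3 lists gave it 2 narrower peaks, the stronger at 82.0 on vehicle, 85.0 on EGF, 64.6 on HRG and 81.7 in LRSKBr3, and pSKBr3 gave it 1 at 67.2. The ERRE of this site lay 2 bp from the centre of the nearest peak on HRG and 15 bp on vehicle in SKBr3 cells, and 16 bp in pSKBr3. It lay 189 bp away on EGF in SKBr3 cells, 116 bp in LRSKBr3, and 832, 776 and 883 bp from the centres of the wide peaks on vehicle, EGF and HRG in BT-474 cells.

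The strongest NRIP1 site among those in fewer lists, chr21:16420239-16422100, had 2 AAGGTCA words. It stood at 54.1 and 51.9 on vehicle and EGF in SKBr3 cells, at 4.59 and 0.857 on EGF and HRG in BT-474 cells and at 22.9 in LRSKBr3. The NRIP1 tandem site, chr21:16350756-16352648, named for its sequence, was called in all 3 SKBr3 lists at 40.0, 53.6 and 40.0, and on vehicle and EGF in BT-474 cells at 17.0 and 51.7. The NRIP1 peak found on EGF alone in SKBr3 cells, chr21:16430867-16431946, ranked at 4.87.

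**Figure D4:**
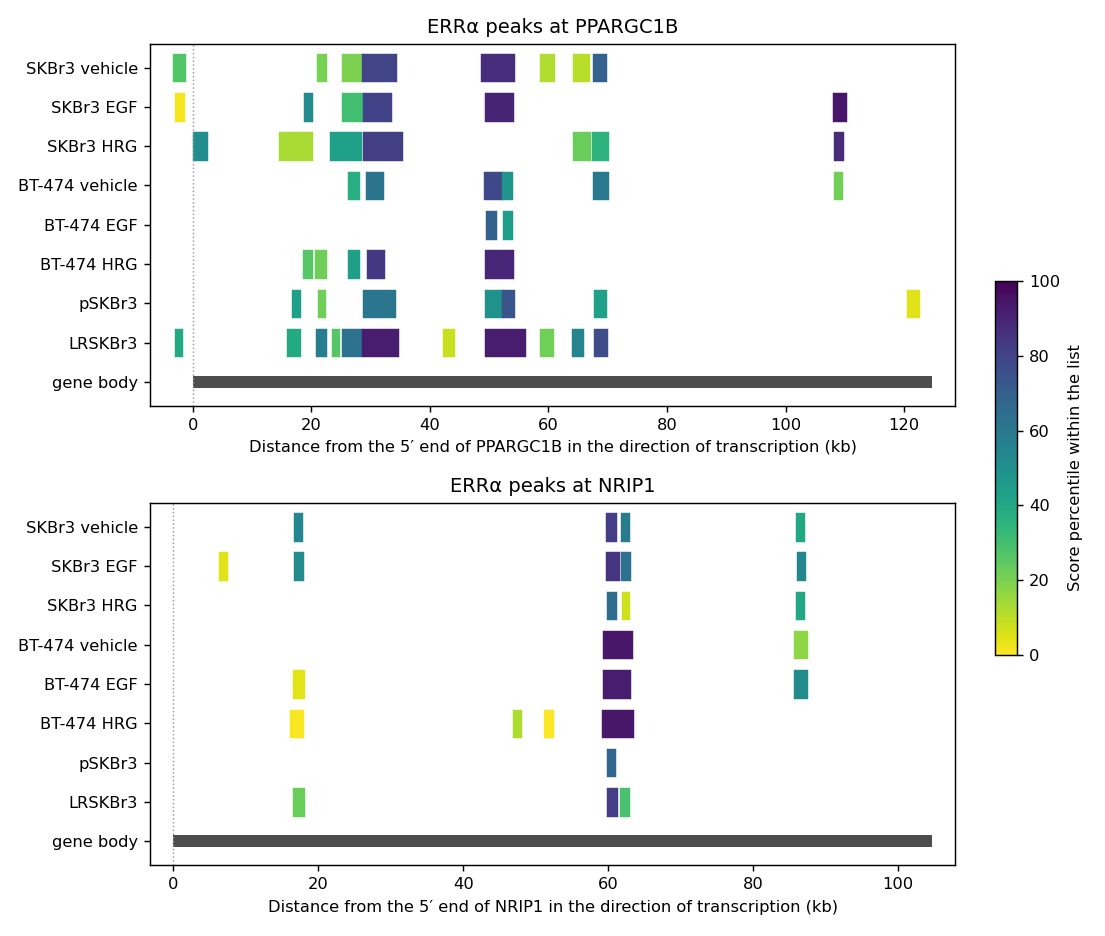
ERRα peaks at PPARGC1B and NRIP1 in each list, as bars against distance from the 5′ end of the gene (kb), coloured by score percentile within the list. The PPARGC1B site near 109 kb is dark in the SKBr3 EGF and HRG lists and absent on vehicle, and the NRIP1 site near 61.3 kb is present in all 8 lists.

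Growth factor-induced sites were found at most of the 7 genes, and at a share of sites near that of the series. In SKBr3 cells 6 of 7 genes (all but PPARGC1A) had at least 1, against 55.3% of protein-coding genes, and 18 of 77 sites (23.4%) were of this class, against 26.1% of all sites. By growth factor, 9 were called on EGF only, 4 on HRG only and 5 on both. In BT-474 cells 5 of 7 genes (all but ESRRA and PPRC1) had at least 1, against 32.7%. Of the 77 sites, 15 (19.5%, 95% Wilson interval 12.2 to 29.7) were of this class, against 21.0% of all sites, and 11 of the 15 were called on HRG only. With lists of equal size the SKBr3 count was 13 and the BT-474 count 7, and with peaks of P at most 1e-10 they were 11 and 4. Sites called on vehicle only in SKBr3 cells made up 12 of 77 (15.6%, interval 9.15 to 25.3), against 8.98% of all sites, and 9 of these 12 were at ESRRG.

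In SKBr3 cells the highest-ranking induced site of each gene was, beside those of ESRRA and PPARGC1B above, chr14:76813170-76815147 at ESRRB, at 32.2 on EGF with 1 AP-1 word, and chr1:217201582-217205003 at ESRRG, at 66.3 on EGF. At PPRC1 it was the NOLC1 start site, and at NRIP1 the weak site on EGF.

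Sites called in LRSKBr3 and not in pSKBr3 were found at 5 of 7 genes (all but PPARGC1A and PPRC1), against 49.4% of protein-coding genes. Sites called in pSKBr3 and not in LRSKBr3 were found at 3 of 7 (ESRRB, ESRRG and PPARGC1B, with windows of 229, 655 and 155 kb), against 8.80%. Neither these shares of genes nor those for growth factor-induced sites above were matched for window length. By site, 4 of 77 (5.19%, interval 2.04 to 12.6) were pSKBr3-specific, against 3.04% of all sites, 12 of 77 (15.6%, interval 9.15 to 25.3) were LRSKBr3-specific, against 21.7% of all sites, and 19 of 77 (24.7%, interval 16.4 to 35.4) were shared by both lines, against 20.4%. With lists of equal size, 3 sites were LRSKBr3-specific and 7 pSKBr3-specific, and with peaks of P at most 1e-10 the counts were 8 and 0. Of the 18 sites induced by growth factor in SKBr3 cells, 8 were also called in LRSKBr3 cells, 4 of them at ESRRA. These 8 were 10.4% of the 77 sites, against 9.60% of all sites. Only 3 of the 8 were absent from pSKBr3, at ESRRA, ESRRB and ESRRG. These were 3.90% of the 77 sites, against 5.95% of all sites. The Wilson intervals cover counting error only.

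**Figure D5:**
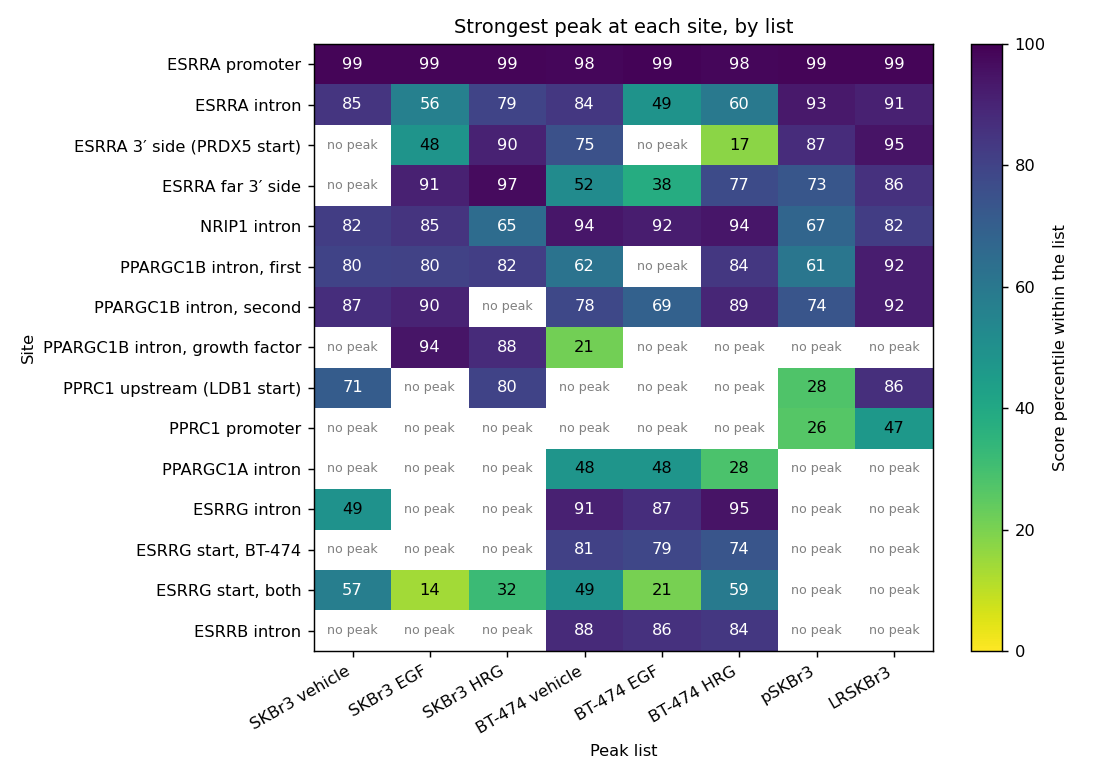
Score percentile of the strongest peak at 15 named sites (rows) in each of the 8 lists (columns), where "no peak" marks a list that does not call the site. The ESRRA promoter stays at 98 to 99 in every list, while the ESRRB intron, the PPARGC1A intron and 1 of the ESRRG starts are called in the BT-474 lists alone.

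The words occurred at the 77 sites about as often as in the series. An ERRE lay at 7 of 77 sites (9.09%, 95% Wilson interval 4.47 to 17.6), against 7.90% of all sites. AAGGTCA lay at 23 of 77 (29.9%, interval 20.8 to 40.8), against 28.4%, and an AP-1 word at 11 of 77 (14.3%, interval 8.17 to 23.8), against 11.9%. The 7 ERRE sites were spread over ESRRA, ESRRB and PPARGC1B with 1 each and ESRRG and NRIP1 with 2 each. Of the 3 sites in all 8 lists, the ESRRA promoter and the NRIP1 intron held an ERRE and the ESRRA intron an AAGGTCA word. By place, the strongest peak of 60 of the 77 sites lay in an intron of the member, 4 in an exon of it, 4 inside another gene and 9 between protein-coding genes.

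Other known coregulators of nuclear receptors ranged from no peak in any list to peaks in all 8. Of a list of 17, peaks were found at 10, 12 and 12 in the SKBr3 vehicle, EGF and HRG lists, at 12, 10 and 12 in those of BT-474, at 12 in pSKBr3 and at 14 in LRSKBr3. The median was 1 peak per gene in all lists but LRSKBr3, where it was 3, and the median over all protein-coding genes was 1 in all lists but BT-474 EGF, where it was 0. CREBBP, KAT2A, CARM1, PNRC2 and HDAC3 were among those with a peak in all 8 lists. NCOA2, a p160 coactivator, had 9, 7 and 13 peaks in the BT-474 vehicle, EGF and HRG lists, 1 in pSKBr3 and 0 in the other 4. MED1, the Mediator subunit that contacts nuclear receptors, had none in any list.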

How the data were processed

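The authors aligned reads to hg19 (GRCh37) with BWA 0.5.9, with SAMtools 0.1.18 also named in the submitters' processing notes, and called peaks with MACS against input at a P value cutoff of 1e-05. The authors deposited 8 peak lists, 1 per condition, whose score column was computed by MACS from the logarithm of each peak's P value. Scores started at 50.00 in the SKBr3 vehicle list and were compared within a list, not between lists. The SKBr3-derived lists pool 2 ChIP libraries each, the BT-474 lists rest on 1 each, and none holds tag counts, so depth and replicate spread are unknown.

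Starts, gene bodies and exons were those of protein-coding genes in GENCODE release 44 lifted to GRCh37, on chromosomes 1 to 22, X and Y. A peak belonged to a gene when its centre lay within 20 kb of any start or inside the gene body. Windows of 100 bp to each side of the centre were searched for words. Shares are given beside the same share over all genes or sites, without tests. Intervals on shares are 95% Wilson intervals. Site merging, word search and gene assignment were tested on simulated data. Alternatives concerned the P threshold (1e-10), lists of equal size, the overlap that joins peaks (50% of both), the distance to a start (10 kb), the gene body, the starts used and the words.

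The 7 genes and the list of 17 coregulators were chosen with earlier results of these data known. Values of 1 coregulator are not reported here. Sites were named where all 8 lists called them, where a centre lay within 1 kb of a start, or where they ranked highest for a gene among the other sites, the growth factor-induced sites or the LRSKBr3-specific sites. Other sites were named after their values were seen. The genes of nearest profile were those with the smallest Euclidean distance over the strongest percentile in each list, for members with a peak in at least 4 lists and leaving out genes within 1 Mb. The work used Python 3.11.15, pysam 0.24.0, samtools 1.23.1 and matplotlib 3.10.9.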

Additional observations from a re-analysis of the deposited data

Results flagged for a closer look

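In a comparison of the same growth factor in SKBr3 and BT-474 cells, the number of peaks moved in opposite directions at 2 of the 7 genes. With EGF, ESRRA went from 3 to 4 peaks in SKBr3 cells and from 5 to 3 in BT-474 cells, a difference of 3 peaks between the changes. With HRG, NRIP1 went from 4 to 3 peaks in SKBr3 cells and from 2 to 4 in BT-474 cells, also a difference of 3 peaks. Each count comes from 1 list, and neither difference was tested. Opposite moves were found at 10.4% of all protein-coding genes with EGF and at 13.0% with HRG.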

How the results depend on the processing

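Of 49 recomputed counts, 35 stayed within 1.5 times the reported value. With peaks of P at most 1e-10, the 77 sites became 45, the 5 genes with a peak in all 8 lists became 3 (ESRRA, PPARGC1B and NRIP1), the SKBr3 growth factor-induced sites 11, those of BT-474 4, and the pSKBr3-specific sites 0. The sites with an ERRE became 4 and those with AP-1 words 7. With lists of equal size, BT-474 growth factor-induced sites were 7, LRSKBr3-specific sites 3 and pSKBr3-specific sites 7. Without the gene body, 49 sites and 8 BT-474 growth factor-induced sites were left. With peaks joined only at an overlap of 50% of both, the 3 sites in all 8 lists became 2. With AAGGTCA in place of the ERRE, 23 sites held a word, and with the whole peak searched, 28 sites held an AP-1 word. In alternatives chosen after seeing the data, PPARGC1B had 5 peaks in pSKBr3 and 8 in LRSKBr3 with P at most 1e-10, and 7 and 6 with lists of equal size. The stricter and shorter lists hold fewer peaks by construction. No paired analysis was possible because each condition has 1 list and no test was made.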

Other observations

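The AP-1 word was counted at the peaks of the 7 genes in each list, without a test. It lay within 100 bp of the centre of 0 of 33 peaks on vehicle, 6 of 31 on EGF and 1 of 24 on HRG in SKBr3 cells, where 6.56%, 12.7% and 9.75% of all peaks of the lists held it. In BT-474 cells it lay at 1 of 29 on vehicle, 1 of 20 on EGF and 4 of 32 on HRG, with 5.94%, 6.36% and 7.39% of all peaks. It lay at 2 of 25 peaks in pSKBr3 and 4 of 34 in LRSKBr3, with 5.69% and 5.70% of all peaks. An ERRE lay at 0 to 3 of the peaks at these genes in any list, and at 5.57% to 8.10% of all peaks of a list.

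By the strongest peak in each of the 8 lists, the genes nearest to NRIP1 were GPHN (distance 6.79 percentile points), MAP3K2 (8.47) and TMEM245 (8.69). The genes nearest to PPARGC1B were LONRF3, NR6A1 and ARID1B, at distances from 8.71 to 10.4. Those nearest to ESRRG were DPP10 (9.86), TMEM62 and MYH10 (both 17.5), and those nearest to ESRRB were HBP1 (20.2), FAR2 (23.4) and LYPD6 (25.3). Those nearest to PPRC1 were ENSG00000288000 (9.74), AP2A2 (24.4) and HOXC12 (25.8). The points share libraries and depth within a list, and the likeness is a description over 8 lists.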
